A study of Homo sapiens with 16 samples.

Results

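A set of 8 genes of the kidney proximal tubule, of 42364 gene identifiers in the data, was followed in human kidney organoids: the transcription factors HNF4A and HNF4G, the endocytic receptor genes LRP2, CUBN, AMN and DAB2, and the metabolic and membrane genes HAO2 and FAM151A. They were listed by name as proximal tubule genes, and the set was chosen by the TNF (tumor necrosis factor) to vehicle differences as well, since HAO2 and FAM151A were listed as falling most, so every value in the TNF comparison is given for these genes as a description with no test. The organoids were made from UM77-2, a single human embryonic stem cell line, and all groups share that line. Bulk RNA was sequenced from isolated spheroids: set 1 had 1 untreated library at each of days 21, 25 and 29 of differentiation (D21, D25, D29), and set 2 had 2 untreated libraries on each of those days, named Org1 and Org2. Another set, the TNF set, had 1 library each of vehicle control (VC) and of 5 ng/ml TNF at 24 h and at 48 h, all recorded as collected on D25. Single-cell libraries were made from whole-well D24 organoid cultures after 24 h of VC or TNF, 1 library each. A further D25 single-cell control sample was not analysed here. Nothing in the labels says whether Org1 and Org2 came from separate differentiations, so p-values measure the spread between these libraries, which may be technical.

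In the kidney, proximal tubule cells take back filtered proteins by receptor-mediated endocytosis. Megalin (LRP2) and cubilin (CUBN) are large receptors of the apical membrane; amnionless (AMN) carries cubilin to the surface, and DAB2 is an adaptor that links the megalin tail to clathrin. HNF4A and HNF4G are nuclear receptors that bind DNA at direct repeats and switch on genes of tubule, liver and gut metabolism. HAO2 is a peroxisomal oxidase of 2-hydroxy acids, and FAM151A is a membrane protein gene active in kidney and gut.

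On GRCh38 (GENCODE 44), all 8 were protein-coding genes. HNF4A lies at chr20:44355699-44432845 on the plus strand. The receptor genes lie at chr2:169127109-169362534 on the minus strand (LRP2), chr10:16823966-17129811 on the minus strand (CUBN), chr14:102922663-102933596 on the plus strand (AMN) and chr5:39371675-39462300 on the minus strand (DAB2). HAO2 and FAM151A share chromosome 1, at chr1:119368779-119394130 on the plus strand and chr1:54609181-54623556 on the minus strand.

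RefSeq promoters of GRCh38.p14, each 250 bases before to 50 after a start, were at hand for 7 of the 8 genes, with HNF4G as the exception. The HNF4 recognition sequence CAAAGGTCA was found on either strand in the windows of FAM151A and CUBN and in 0.407% of all 35116 promoters. HAO2 held CAAAGTCA at 2 places, a sequence found in 1.03% of promoters. The other HNF4 forms searched, CAAAGTCCA (0.384% of promoters) and CAAAGTTCA (0.296%), were not in the members' windows, nor were 2 forms of the NF-kB motif (0.191% and 0.145%). The first 200 bases of the 3 windows with a match to CAAAGGTCA or CAAAGTCA are printed 5′ to 3′ on the gene's strand because their genes carry one. Capitals mark the match. The motifs were chosen with the sequences in view, and a match of letters is a description, not a binding site.
FAM151A (chr1:54623576-54623775, minus strand): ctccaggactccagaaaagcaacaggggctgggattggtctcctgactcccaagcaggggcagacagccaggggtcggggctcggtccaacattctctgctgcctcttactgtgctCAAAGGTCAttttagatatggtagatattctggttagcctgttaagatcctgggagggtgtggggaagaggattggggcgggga
CUBN (chr10:17129862-17130061, minus strand): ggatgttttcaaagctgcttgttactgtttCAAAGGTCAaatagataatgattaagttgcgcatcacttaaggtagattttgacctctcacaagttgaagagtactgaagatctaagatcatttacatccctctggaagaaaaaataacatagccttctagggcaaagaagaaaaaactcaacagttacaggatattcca
HAO2 (chr1:119368535-119368734, plus strand): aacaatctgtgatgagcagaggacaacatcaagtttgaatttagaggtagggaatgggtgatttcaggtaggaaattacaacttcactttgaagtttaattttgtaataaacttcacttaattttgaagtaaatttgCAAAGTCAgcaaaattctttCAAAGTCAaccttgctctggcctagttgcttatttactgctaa
The CAAAGGTCA match began 134 bases before the FAM151A start and 220 bases before the CUBN start. In HAO2 the CAAAGTCA matches began 113 and 93 bases before the start.

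Bulk libraries held between 19073609 and 59246286 reads counted to genes, and values are log2 of CPM (reads scaled to the same total in every library) plus 1. Markers fixed by name were used to check the organoid label. Of 17 proximal tubule markers, 14 to 16 were listed in a table, none of those at 0, and they summed to between 733 and 1233 CPM in the 13 bulk libraries. Leukocyte markers summed to at most 13.3 CPM, with PTPRC, CD68 and LYZ listed in none. In set 2, 7 of the 8 stromal markers rose from D21 to D29 (median log2 change 2.02, against -0.019 over all genes), and their summed level went from 4219 to 4817 CPM on D21 to between 14151 and 17672 CPM on D29. Podocyte markers fell for 6 of 10 (median -1.06), and their sum went from 11881 to 12458 CPM on D21 to between 4012 and 8404 CPM on D29. Early nephron markers fell for 5 of 10 and rose for 1, with sums of 2103 and 2316 CPM on D21 and 1161 and 1169 CPM on D29. Neuronal markers rose for 7 of 8 (median 1.32), muscle markers for 6 of 8 (1.25) and mural markers for 5 of 7 (0.96), and distal tubule markers fell for 4 of 8 (-0.52). Of 16 proximal tubule markers tested, 8 fell and 3 rose (median -0.45). The sum of proximal tubule markers was 933 to 989 CPM on D21 and 833 to 924 CPM on D29. In bulk RNA, fewer cells of a type and less RNA per cell cannot be told apart, and the part of these shifts in the changes below was not tested.

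The first question was how these genes moved with culture time. From D21 to D29 in set 2, the genes split: HNF4A, LRP2, FAM151A, HAO2 and AMN fell, while HNF4G, CUBN and DAB2 did not pass the test. Among all 27650 genes, 8.33% were called lower at an adjusted p below 0.05 (limma on log2 values, Benjamini-Hochberg), against 5 of the 8, and 10.0% were called higher, with no member among them. Of the members, 6, without CUBN and DAB2, had each D29 library under each of the D21 ones, which held for 32.8% of all genes (27.1% lay higher). Over all genes 2778 were called higher and 2303 lower; with each library centred on its median gene, which moves the median of all genes to -0.12, the split was 2408 and 4667.

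HNF4A, a nuclear receptor central to tubule and liver gene programs, had D21 values of 6.94 and 6.90, D25 values of 6.21 and 6.29, and D29 values of 5.15 and 5.13. The 3 days did not overlap, and each step was a fall: by 0.67 on the log2 scale from D21 to D25 (SE 0.066, adjusted p = 0.0020) and by 1.11 from D25 to D29 (SE 0.066, adjusted p = 0.0056). Over the full interval the fall was 1.78 (SE 0.066, adjusted p = 3.4e-05), a mean of 120 CPM on D21 against 34.3 on D29, or 3.51-fold. HNF4A was the only member called between D21 and D25, when 1.99% of all genes were called lower and 3.39% higher. In set 1 it read 5.48, 4.82 and 4.62 on the 3 days, also downward. Its paralog HNF4G stood at 4.75 and 4.68 on D21, then 4.87 and 4.88 on D25, and finally 4.50 and 3.98 on D29. Both D29 libraries of HNF4G lay below both D21 libraries, yet the difference of -0.48 (SE 0.15) had an adjusted p of 0.072. Its 2 D29 libraries lay far apart: without the first the HNF4G difference was -0.74 (adjusted p = 0.0017), and without the second -0.21 (adjusted p = 0.23).

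Among the receptor genes, LRP2 and AMN fell and CUBN and DAB2 did not pass the test. LRP2 read 8.78 and 8.63 on D21, then 8.27 and 8.23 on D25, and finally 7.48 and 7.01 on D29, with no overlap between any 2 days. Its fall from D21 to D29 was 1.46 (SE 0.14, adjusted p = 0.00044), from a mean of 417 CPM to 153. In set 1 LRP2 also stepped down, from 8.06 to 7.45 and 7.24. CUBN read 8.04 and 7.42 on D21, then 8.18 and 8.19 on D25, and finally 7.42 and 6.93 on D29. The 2 D21 libraries of CUBN differed widely, and the D29 difference of -0.55 (SE 0.21) did not pass (adjusted p = 0.11). Single libraries decided this: the CUBN difference was -0.86 without the second D21 library (adjusted p = 0.043) and -0.80 without the first D29 library (adjusted p = 0.032), but -0.24 without the first D21 library and -0.31 without the second D29 library, neither of which passed. CUBN was highest on D25 in set 2, and in set 1 it read 6.62, 6.94 and 6.98, with no later fall.

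AMN, the cubilin partner, fell modestly. Its values were 6.01 and 5.79 on D21, then 5.94 and 6.08 on D25, and finally 5.47 and 5.26 on D29, a fall of 0.54 (SE 0.11, adjusted p = 0.011). Without the first D21 library the adjusted p was 0.088. In set 1 AMN stood at 5.20 on D21, 5.38 on D25 and 5.20 on D29. The adaptor DAB2 moved least. It read 6.79 and 6.57 on D21, then 6.96 and 6.82 on D25, and finally 6.69 and 6.47 on D29, and the D21 and D29 libraries overlapped (difference -0.11, SE 0.10, adjusted p = 0.56). DAB2 in set 1 lay between 6.20 and 6.42.

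HAO2 held its level to D25 and FAM151A was a little lower, and both then dropped. HAO2 read 4.42 and 3.83 on D21, then 4.28 and 4.31 on D25, and finally 2.57 and 3.01 on D29. The D29 libraries lay well below the others, a fall of 1.34 from D21 (SE 0.21, adjusted p = 0.0039). In set 1 HAO2 went from 2.69 to 3.20 and then 2.23, so D25 was the highest day and D29 the lowest, as in the set 2 means. FAM151A read 2.96 and 2.74 on D21, then 2.38 and 2.49 on D25, and finally 0.80 and 0.71 on D29, the lowest level of any member. In reads, FAM151A fell from 146 and 156 to 22 and 17 (log2 fall 2.09, SE 0.16, adjusted p = 0.00019), a 9.24-fold difference in mean CPM. FAM151A was not among the genes listed for set 1.

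From D25 to D29 all 8 members lay lower in both D29 libraries than in both D25 libraries, which held for 25.5% of all genes, and 5 were called lower against 0.825% of all genes (1.25% were called higher, and 22.1% lay higher in both libraries): HNF4A, LRP2, AMN, HAO2 and FAM151A. Fitted falls among these ranged from 0.65 for AMN to 1.68 for FAM151A. The differences of CUBN (-1.01, SE 0.21, adjusted p = 0.058), HNF4G (-0.64, SE 0.15, adjusted p = 0.082) and DAB2 (-0.32, SE 0.10, adjusted p = 0.18) did not pass. These calls rest on few libraries: without either D25 library limma called no gene in this comparison, members included, although 3383 and 3715 genes had an unadjusted p below 0.05. Leaving out either D21 library, which only adds to the estimate of spread, ended the calls of LRP2 and AMN. Without the second D29 library AMN was not called either (adjusted p = 0.10). Between D21 and D25, 3 members lay lower in both libraries (LRP2, HNF4A and FAM151A, against 25.6% of genes) and 3 higher (DAB2, CUBN and HNF4G, against 24.4%).

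**Figure D1:**
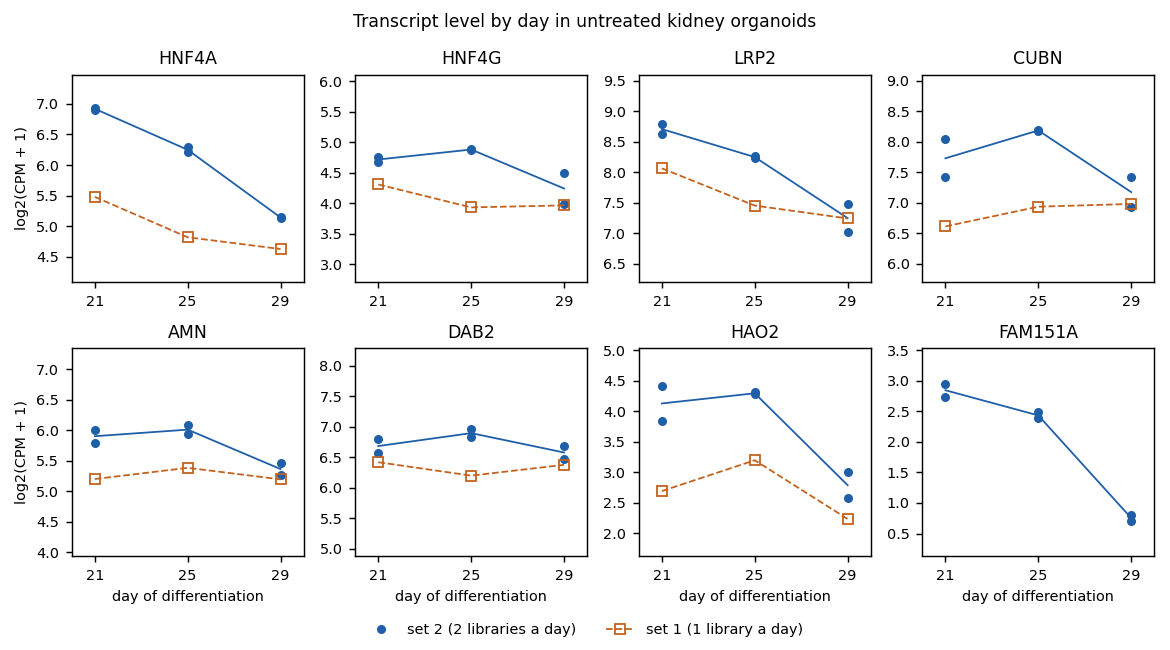
Log2(CPM + 1) of each gene against day of differentiation; filled circles are the 2 set 2 libraries of a day with a line through their mean, and open squares are the single set 1 libraries. All vertical axes span the same log2 range, centred on each gene. HNF4A and LRP2 step down in both sets, HAO2 peaks on D25 in set 1 and drops by D29 in both, and the D21 and D29 points of DAB2 overlap in set 2.

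Genes around the members were read from lists by role. The lists were chosen with earlier results of these data known, so the counts per list are a description. Of 10 tubule transcription factors tested besides the members, 6 fell from D21 to D29 and none rose (median -0.51 against -0.019 over all genes), among them MLXIPL, the carbohydrate response factor (-1.29, SE 0.12, adjusted p = 0.00034), and PAX8, a renal lineage factor (-1.01, SE 0.091, adjusted p = 0.00034). Of 20 genes listed under endocytic machinery, a list that also held receptors and a transport gene, 4 rose and 2 fell, with a median of 0.01. The risers included the other LDL receptor family members LRP1 (0.81, SE 0.11, adjusted p = 0.0019) and LRP4 (0.63, SE 0.060, adjusted p = 0.00042), and the membrane transport gene ANKH (0.87, SE 0.097, adjusted p = 0.00086).

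Among the protein ligands of megalin and cubilin, 3 of 10 fell, namely APOB (-2.34, SE 0.45, adjusted p = 0.010), APOA1 (-1.34, SE 0.17, adjusted p = 0.0016) and AMBP (-0.91, SE 0.19, adjusted p = 0.013), and none rose. Of 15 HNF4A target genes, 8 fell and none rose (median -0.59), the prothrombin gene F2 among them (-1.37, SE 0.22, adjusted p = 0.0043). Proximal tubule metabolism had 10 of 20 lower, with DDC (-1.65, SE 0.18, adjusted p = 0.00083) and GLYATL1 (-1.37, SE 0.11, adjusted p = 0.00021) in front, and 1 higher, the betaine enzyme BHMT (1.13, SE 0.13, adjusted p = 0.0010). Peroxisome genes, the class to which HAO2 belongs, were mostly uncalled: 2 of 17 fell (PECR, -0.78, SE 0.11, adjusted p = 0.0025, and ACAA1, -0.25, SE 0.064, adjusted p = 0.029) and 1 rose. Of 16 proximal tubule markers, 8 fell and 3 rose (CDH6, SLC16A9 and SMIM24). Of 12 NF-kB response genes, 8 rose in these untreated organoids, CCL2 by 1.64 (SE 0.19, adjusted p = 0.0010), ICAM1 by 1.56 (SE 0.21, adjusted p = 0.0020) and VCAM1 by 1.10 (SE 0.16, adjusted p = 0.0026).

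The second question was how the genes read under TNF. In bulk organoids all 8 were lower in the TNF library than in its VC library at both times. HAO2 and FAM151A, chosen for this, stood at the bottom of all 21093 genes: HAO2 ranked 1 from the lowest at 24 h and 3 at 48 h, and FAM151A ranked 3 and 2. No test is given for the members, since this contrast chose them, and each time had 1 library of each treatment.

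HAO2 read 5.58 in VC and 2.33 in TNF at 24 h, and 5.60 and 2.75 at 48 h. In CPM this was 47.0 against 4.01 at 24 h, 11.7-fold higher in VC, and 47.3 against 5.71 at 48 h, 8.30-fold. The 2 VC libraries differed by far less than either pair. FAM151A read 3.55 in VC and 0.88 in TNF at 24 h, and 3.79 and 0.86 at 48 h. The added 1 compresses so low a gene: in CPM it was 10.7 against 0.837 (12.7-fold) and 12.9 against 0.810 (15.9-fold), resting on 44 and 48 reads in the TNF libraries.

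HNF4A read 6.27 in VC and 5.02 in TNF at 24 h and 6.60 and 5.65 at 48 h, differences of -1.26 and -0.95. HNF4G read 4.79 and 3.74, then 4.90 and 4.21, differences of -1.06 and -0.68. Both factors therefore lay about 2-fold lower at 24 h (2.44-fold and 2.17-fold in CPM), with a smaller gap at 48 h. CUBN went from 7.86 in VC to 6.59 in TNF at 24 h and from 7.87 to 6.96 at 48 h. AMN stood at 7.07 in both VC libraries and at 6.11 and 6.06 in TNF. DAB2 read 7.51 and 6.56 at 24 h, and 7.15 and 6.45 at 48 h, and its 2 VC libraries themselves differed.

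LRP2 showed the smallest gap of the 8. It read 7.61 in VC and 7.26 in TNF at 24 h, and 7.42 and 7.26 at 48 h, 1.27-fold and 1.12-fold in CPM. Its 48 h difference of -0.16 was smaller than the gap between its 2 VC libraries. By rank LRP2 stood at 2112 and 4813 of 21093 genes, while the other 7 lay within the lowest 437. At 24 h, 5 members were lower by at least 1 on the log2 scale (HNF4A, HNF4G, CUBN, HAO2 and FAM151A), against 0.730% of all genes, and at 48 h 3 were (AMN, HAO2 and FAM151A), against 0.754%. Since the TNF comparison chose members, nothing is read from these counts.

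**Figure D2:**
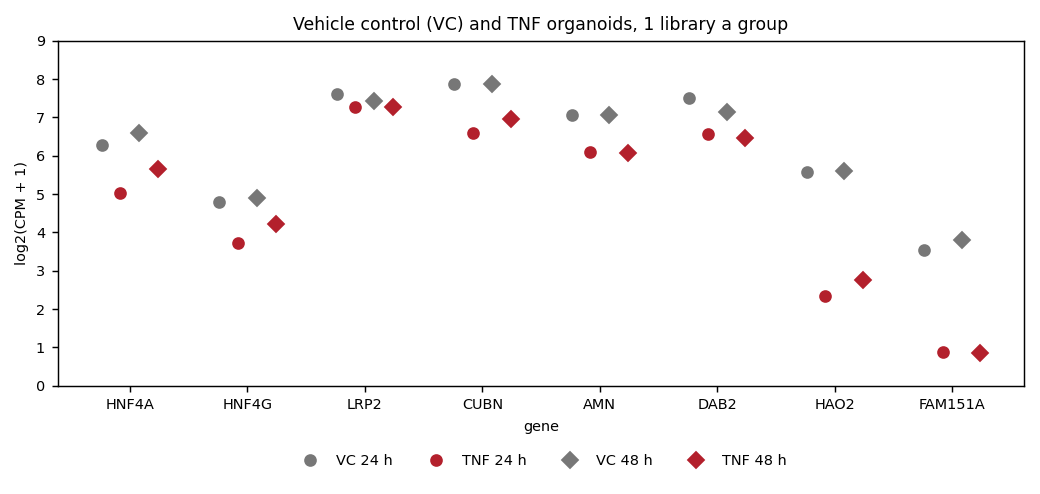
Log2(CPM + 1) of each gene in the 4 libraries of the TNF set, with circles for 24 h and diamonds for 48 h, grey for VC and red for TNF. Every TNF point lies below its VC point; the gap is widest for HAO2 and FAM151A and narrowest for LRP2.

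The treatment itself was visible in genes outside the group. VCAM1 was higher by 4.61 at 24 h and 3.67 at 48 h, ICAM1 by 4.78 and 3.72, NFKBIA, the NF-kB inhibitor, by 2.59 and 2.35, and CXCL10 by 3.48 and 2.92. A model with time and treatment over the 4 libraries, in which the 2 times stand in as replicates, was used for genes that are not members. Its SE and p-values therefore measure how alike the 24 h and 48 h differences were. They do not measure the spread between repeats of a treatment at the same time, since there were none. The model called 10.8% of 21093 genes lower and 8.42% higher, and 11 of 12 NF-kB response genes rose. In it 17 of 20 proximal tubule metabolism genes fell (median -0.96 against -0.026 over all genes), with GPX3 at -1.91 (SE 0.069, adjusted p = 1.7e-12), BHMT at -1.71 (SE 0.065, adjusted p = 3.3e-12) and FBP1 at -1.51 (SE 0.12, adjusted p = 4.8e-08). None of that list rose. BHMT thus rose with days in culture and fell with TNF.

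Since the lists were chosen with earlier results known, their counts under TNF are a description as well. HNF4A target genes fell for 10 of 15 and rose for 1 (median -0.81), APOB by far the most (-3.21, SE 0.11, adjusted p = 5.9e-13), then APOA1 (-2.17, SE 0.097, adjusted p = 2.7e-11). The single riser was SERPINA1, which is also an acute phase gene. Of 10 tubule transcription factors, 7 fell (median -0.38), among them MAF at -0.80 (SE 0.064, adjusted p = 5.6e-08) and NR1H4 at -0.68 (SE 0.12, adjusted p = 0.00048). Of 10 ligands of megalin and cubilin, 8 fell and none rose. Peroxisome genes fell for 8 of 17 by smaller steps (median -0.20): AMACR by 0.64 (SE 0.11, adjusted p = 0.00052), CAT by 0.59 (SE 0.070, adjusted p = 6.9e-06) and CROT by 0.42 (SE 0.089, adjusted p = 0.0025). The endocytic machinery list had 5 of 20 lower, EHD1 among them by 0.46 (SE 0.062, adjusted p = 2.7e-05). Its 1 riser was the membrane transport gene ANKH, higher by 0.42 (SE 0.074, adjusted p = 0.00050).

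Of 15 proximal tubule markers, 11 fell and 3 rose (CDH6, SLC16A9 and PDZK1IP1), and their sum was 1212 and 1233 CPM in VC against 733 and 836 CPM in TNF. All 10 podocyte markers fell (median -0.83) and the sum went from 7439 and 6935 CPM to 4511 and 3360 CPM. Endothelial markers fell for 6 of 6 (median -0.61). Of 5 hepatic or gut endoderm markers, 4 fell (AFP, FGB, VIL1 and ALB) and SERPINA1 rose (median -1.12), and their sum went from 554 and 566 CPM in VC to 239 and 234 CPM in TNF; APOB and APOA1 are also made by liver and gut. Mural markers rose for 5 of 7 and fell for 1. Distal tubule markers summed to 543 and 560 CPM in VC and 453 and 556 CPM in TNF. The part of cell makeup in the bulk differences was not tested.

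A further question was which cells carried the transcripts. The VC library held 11906 cells with over 500 genes and the TNF library 23160, with medians of 6359 and 2599 unique molecular identifiers (UMIs) a cell, and 82 barcodes were shared. Each condition was 1 library, so intervals below cover counting error only. Both libraries were clustered together into 15 clusters, of which 9 met the rule for a name, in 7 classes. Cluster 1 was named proximal tubule-like from 9 of the fixed markers, among them SLC3A1, SLC34A1, FXYD2, GATM and GPX3. It held 1261 VC cells (10.6%) and 3597 TNF cells (15.5%). AMN stood in its top 10 genes, and 4 early nephron markers also passed there. In VC the hepatic or gut endoderm markers summed to 213 CPM of UMIs there and to at most 9.53 CPM in any other class. APOA1 stood there at 136 CPM and APOB at 7.16 CPM. No cluster was named hepatic or gut. At a finer resolution of 0.5 the same region gave proximal tubule-like cells (707 VC and 2270 TNF) apart from distal tubule-like cells (487 and 1163). Without aligning the libraries, proximal tubule-like cells made up 9.31% of VC cells (1109) but 3.49% of TNF cells (808). Podocyte-like cells were then 11.4% of VC and 5.73% of TNF cells, against 7.72% and 12.9% with alignment. In that setting 66.2% of TNF cells had no name, so the naming of TNF cells depended on alignment.

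In the VC library all 8 members had their highest level of any named class in the proximal tubule-like cells. The members were left out of the genes used for clustering. They had been listed as proximal tubule genes, so the order is given as a description. HNF4A stood at 25.9 CPM of UMIs (95% exact Poisson interval 23.7 to 28.3), followed by muscle-like cells at 2.42 (0.887 to 5.26) and podocyte-like cells at 1.61. Below the tubule the intervals of HNF4A overlapped from 1 class to the next down to stromal-like cells at 0.355. HNF4G stood at 14.1 (12.4 to 15.8), and all other named classes lay between 0.289 and 0.689 with overlapping neighbours.

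CUBN and AMN shared an order: proximal tubule-like cells first, at 76.5 (72.6 to 80.6) and 151 (146 to 157), then podocyte-like cells at 7.35 (5.66 to 9.39) and 6.32 (4.76 to 8.22), then the rest at 0.449 to 2.17 with overlapping intervals. LRP2 was less restricted. It stood at 69.7 (66.0 to 73.6) in proximal tubule-like cells, then at 16.6 (14.2 to 19.4) in the class like neural progenitors or glia, 8.16 (6.37 to 10.3) in podocyte-like cells and 7.25 (4.30 to 11.5) in muscle-like cells, the latter pair overlapping. DAB2 was the most widespread, at 141 (136 to 147) in proximal tubule-like, 48.9 (44.4 to 53.8) in podocyte-like and 29.3 (26.6 to 32.3) in stromal-like cells, and no class was below 11.6. Proximal tubule-like cells held 51.9% of all DAB2 UMIs in the VC library and 64.1% of those of LRP2, against 80.3% to 92.4% for the other 6.

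HAO2 and FAM151A were scarce outside the tubule. HAO2 stood at 17.3 (15.5 to 19.3) in proximal tubule-like cells, 1.26 (0.631 to 2.26) in podocyte-like cells and at most 0.362 elsewhere. FAM151A stood at 3.71 (2.89 to 4.69) on 70 UMIs, at 0.919 (0.397 to 1.81) on 8 UMIs in podocyte-like cells, and had no UMI in the other 5 named classes; 3 counts would have been 0.213 to 1.21 CPM there. At resolution 0.5 the proximal tubule-like cells of VC held HAO2 at 27.6 CPM and FAM151A at 5.74 CPM, while the distal tubule-like cells held HAO2 at 0.653 CPM and had no FAM151A UMI. HNF4A was 38.8 CPM in the former and 3.43 CPM in the latter, CUBN 121 and 4.24, and DAB2 203 and 35.4.

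**Figure D3:**
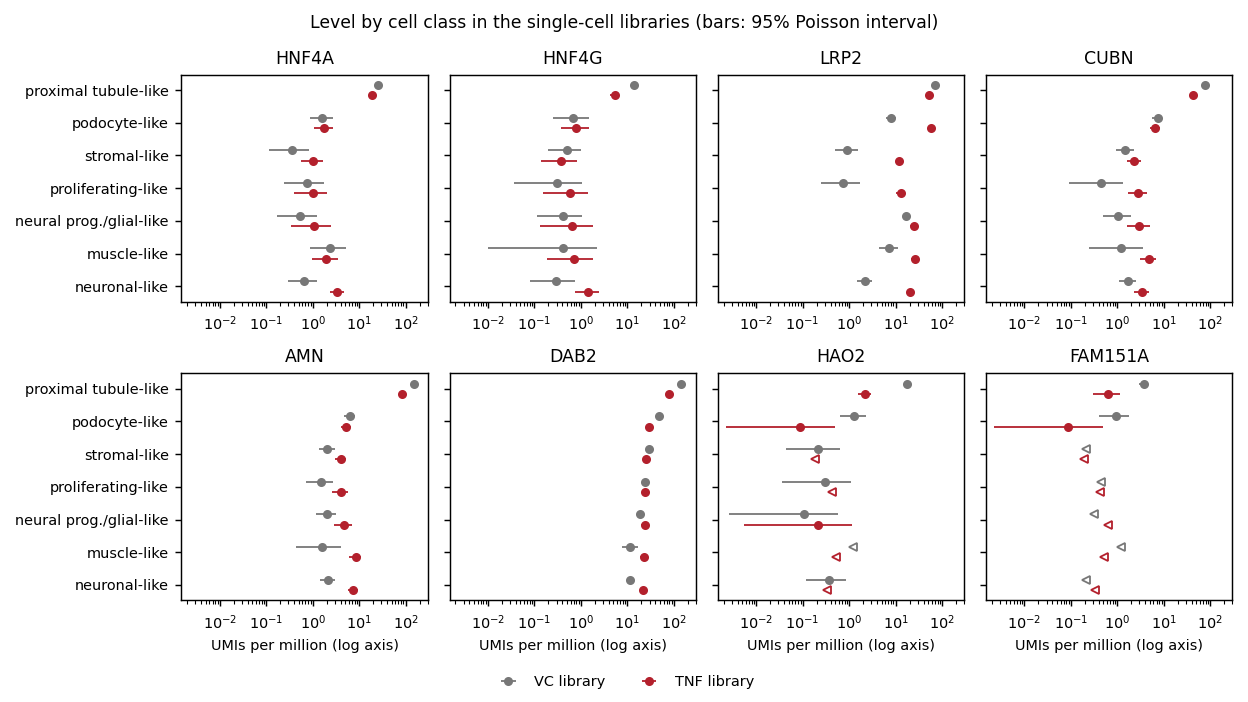
CPM of UMIs on a log axis for each gene in the 7 named classes of the single-cell libraries, VC in grey and TNF in red, with 95% exact Poisson intervals; open triangles mark classes with no UMI, drawn at the level of 3 counts. Proximal tubule-like cells are highest for all 8 genes in VC, and LRP2 in TNF podocyte-like cells reaches the level of the proximal tubule-like cells.

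Likeness across the 15 VC clusters was measured as Pearson r of log2(CPM + 10), over clusters of 1 library and with no p. Among the genes most like HNF4A were LINC01781 and, below it, CARMIL1 (0.942). For LRP2 they were ALPL (0.929), SUPT3H (0.919) and CD9 (0.910). For HAO2 they were TMEM52B (0.993), which stands among the distal tubule markers used here, AGXT2 (0.990) and FGB (0.989). FGB stands among the hepatic or gut endoderm markers used here. In these 15 clusters proximal and distal tubule-like cells shared a cluster, so r cannot separate proximal from distal genes. At resolution 0.5, TMEM52B was a marker of the separate distal tubule-like cells. HAO2 was far lower there than in proximal tubule-like cells, as given above. Within the group, HAO2 was closest to CUBN (0.967) and FAM151A (0.960), while HNF4A was closest to AMN (0.884), and LRP2 reached at most 0.757, with HNF4G.

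Within proximal tubule-like cells, the TNF library held less of each member. The TNF to VC ratio was lowest for HAO2, at 0.126 (95% exact interval 0.0860 to 0.178), 2.18 against 17.3 CPM, and next for FAM151A at 0.168 (0.0771 to 0.327), on 10 UMIs in TNF and 70 in VC. Among 13260 genes with at least 50 VC UMIs in these cells, HAO2 ranked 2 and FAM151A 6 from the lowest ratio. The same treatment contrast chose these genes, so their place is a description. The filter used the VC library alone, so genes low in VC and higher in TNF could not enter the order.

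The transcription factors separated within these cells. HNF4G had a ratio of 0.381 (0.295 to 0.488), rank 74, and HNF4A one of 0.742 (0.641 to 0.857), rank 1177. The receptor partners CUBN, AMN and DAB2 had ratios of 0.548 (0.499 to 0.600), 0.545 (0.511 to 0.582) and 0.555 (0.519 to 0.594), all with overlapping intervals. LRP2 stood at 0.764 (0.700 to 0.834). All 8 intervals lay below 1, as did those of 21.0% of the 13260 genes that passed the same VC filter. Of these genes 28.1% lay above 1, and the median ratio was 1.03. Both shares carry that 1-sided filter. Thinned to 1500 UMIs a cell, all 8 ratios remained below 1, although the interval of HNF4A reached 1.06.

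Other genes of these cells, from the same lists, gave the setting as a description. Of the listed genes with at least 50 VC UMIs, all 16 of proximal tubule metabolism had intervals below 1 (median ratio 0.443). So did all 10 tubule transcription factors (0.670), 12 of 13 HNF4A target genes (0.455) and 7 of 16 peroxisome genes (0.882). Of 20 endocytic machinery genes, 5 lay below 1 and 2 above (0.984). Markers that named the class shifted as well, GPX3 with a ratio of 0.218 and SLC34A1 with 0.204, whereas CDH6 had 1.38. The metabolic gene BHMT had a ratio of 0.256. VCAM1 had a ratio of 13.4, NFKBIA 4.55 and ICAM1 14.1. Markers of other cells were also higher inside the TNF tubule class: all 10 podocyte markers lay above 1, their sum going from 203 to 633 CPM, and stromal markers went from 342 to 1055. Their part in the ratios of the members was not tested.

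LRP2 differed from its receptor partners in podocyte-like cells. In podocyte-like cells LRP2 went from 8.16 (6.37 to 10.3) to 58.6 (54.2 to 63.2) CPM, a TNF to VC ratio of 7.18 (5.62 to 9.31). Among 10769 genes with at least 50 VC UMIs in these cells, its rank from the lowest ratio was 10760, on 71 VC UMIs. Of these genes, 21.3% had an interval above 1 and 30.5% one below. Genes with fewer VC UMIs were not ranked, so genes low in VC and high in TNF are missing from this order. In the TNF library, the LRP2 interval of podocyte-like cells overlapped that of proximal tubule-like cells (53.3, 49.8 to 57.0). For CUBN, AMN and DAB2 the ratios in podocyte-like cells were 0.892 (0.630 to 1.27), 0.828 (0.563 to 1.22) and 0.609 (0.526 to 0.704). The ratio of LRP2 in podocyte-like cells lay between 3.94 and 8.31 under the other clusterings, filters and depths. The podocyte-like cells themselves differed between the libraries: the sum of their own markers was 11133 CPM in VC and 5505 CPM in TNF, stromal markers went from 1243 to 1845 CPM, and the median cell held 5028 and 2558 UMIs. At resolution 0.5, 1 of the podocyte-like clusters held 1 VC cell and 670 TNF cells. The part of these shifts in the LRP2 ratio was not tested.

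LRP2 was also higher in the TNF library in every other named class outside the tubule, from 0.924 to 11.8 CPM in stromal-like, 0.749 to 12.8 in proliferating, 2.17 to 20.04 in neuronal-like, 7.25 to 25.6 in muscle-like cells, and 16.6 to 24.3 in cells like neural progenitors or glia. It was not alone in this. AMN and CUBN were higher in the same 5 classes, AMN at between 3.98 and 8.36 CPM in the TNF library and CUBN going from 1.49 to 2.32 CPM in stromal-like, 0.449 to 2.84 in proliferating, 1.74 to 3.40 in neuronal-like, 1.21 to 4.70 in muscle-like cells and 1.05 to 2.96 in cells like neural progenitors or glia. The CUBN intervals of VC and TNF overlapped in each of these classes but the proliferating cells, and those of AMN overlapped in proliferating cells and in cells like neural progenitors or glia. HNF4A went from 0.651 to 3.40 CPM in neuronal-like cells and DAB2 from 11.6 to 21.6, neither with overlapping intervals. HAO2 and FAM151A stayed at or under 0.212 there. Free RNA was not measured in either library, and its part in these low levels was not tested. Over all cells LRP2 was 20.4 CPM in VC and 31.5 in TNF, a ratio of 1.55 (1.46 to 1.64), on the other side of 1 from the tubule-like cells. The other 7 members had ratios between 0.125 and 0.807. The bulk TNF set went the other way for LRP2, with VC higher by 1.27-fold at 24 h and 1.12-fold at 48 h. Bulk RNA came from isolated spheroids and the single cells from whole wells, and the part of this difference was not tested. With cells thinned to 1500 UMIs the all-cell ratio was 1.28 for HNF4A and 1.08 for CUBN, both with intervals spanning 1, and 2.21 for LRP2. Only 29.8% of LRP2 UMIs of the TNF library lay in proximal tubule-like cells.

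**Figure D4:**
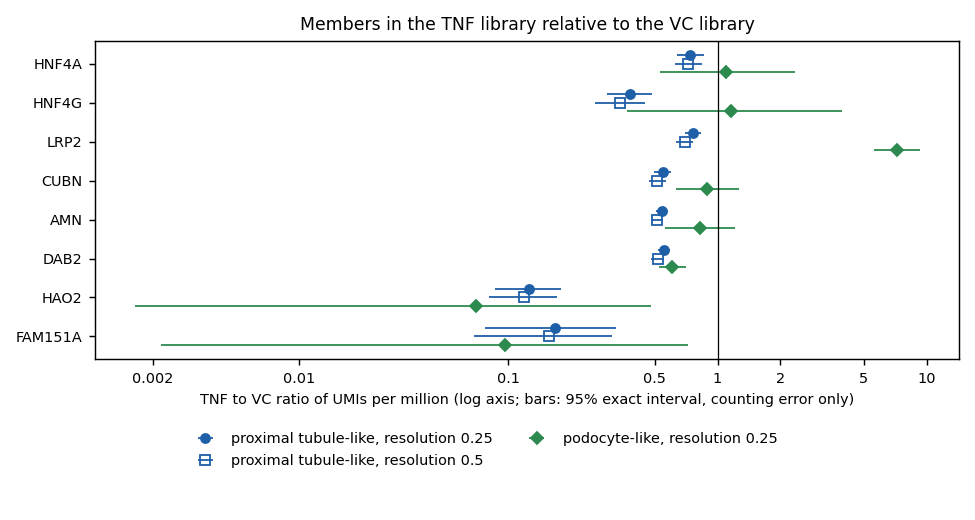
TNF to VC ratio of CPM on a log axis with 95% exact intervals, for proximal tubule-like cells at 2 clustering resolutions (circles and open squares) and for podocyte-like cells (diamonds). All ratios in proximal tubule-like cells lie below 1, lowest for HAO2 and FAM151A, and LRP2 in podocyte-like cells lies above 5.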

How the data were processed

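For bulk RNA-seq the authors aligned reads with STAR 2.7.8a to GRCh38, counted them per gene with HTSeq (0.11 in the submitters' processing notes) and deposited log2 values of CPM plus 1 made with voom of limma. Steps in the values gave whole reads for 100% of values (largest distance from a whole number 1.68e-08), and edgeR on these reads called 5552 genes for D29 against D21. The authors deposited single-cell UMI counts as filtered matrices made with Cell Ranger (2.1.1 in the notes, while the matrix header names a later version); the notes name hg19 and hg38 without saying which was used. The shallowest TNF cell had 1514 UMIs and the shallowest VC cell 613.

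Day comparisons in set 2 used limma 3.58.1 with trend on the log2 values over all 27650 genes, and an adjusted p below 0.05 counted as called. Each cell was filtered at over 500 genes, libraries were aligned in 30 components and clustered by Leiden at 0.25, and a cluster was named from at least 3 fixed markers unless its leading genes went against the name. The genes held to go against a name were set after the clusters were seen. Scrublet's automatic threshold called 0 doublets. At a rate of 0.8% per 1000 barcodes, 10.0% of VC cells and 18.5% of TNF cells would be doublets. Cells with the highest scores at that rate made up 9.99% of proximal tubule-like cells in VC and 17.1% in TNF. Among podocyte-like cells they made up 15.2% in VC and 23.1% in TNF. The self-test on simulated data recovered the planted changes. Members and lists were chosen with earlier results of these data known. Up to 3 called genes with the largest change per list were named, plus 4 treatment genes, and other genes were named after their values were seen. Some genes that this rule names are not reported here. Alternatives were edgeR 4.0.16 and DESeq2 1.42.0 on recovered reads, other scalings and filters, and left-out libraries. Motifs were matched on both strands.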

Additional observations from a re-analysis of the deposited data

Results flagged for a closer look

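HNF4G, DAB2 and CUBN had changes of opposite sign in set 1 and set 2 over the same days, with both set 2 libraries on the same side. Set 1 has 1 library a day, so the difference was not tested. The set 1 changes of HNF4G and CUBN from D25 to D29 were so small that these genes hardly moved there. From D21 to D25 HNF4G changed by -0.38 on the log2 scale in set 1 and by 0.16 in set 2, and DAB2 by -0.22 and 0.21. From D25 to D29 HNF4G changed by 0.033 in set 1 and -0.64 in set 2, CUBN by 0.045 and -1.01, and DAB2 by 0.18 and -0.32.

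LRP2 had a TNF to VC ratio of 7.18 in podocyte-like cells and 0.764 in proximal tubule-like cells of the same 2 libraries, with intervals on opposite sides of 1; with 1 library in each condition this difference was not tested over samples.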

How the results depend on the processing

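HNF4A, LRP2, HAO2 and FAM151A were called lower from D21 to D29 in all 13 alternatives, AMN in 12, CUBN and HNF4G in 4 each and DAB2 in 0. Genes called for D29 against D25 numbered 574, against 1336 with edgeR, 1288 with DESeq2, 1128 with a mean of at least 1 CPM, 209 without trend, 1233 with median centring and 1118 with the replicate block, and members called lower were 5, against 2 without trend and 8 with the block. For D25 against D21 the genes called were 1486, against 2252 with median centring, and members called lower were 1, against 2 with DESeq2, median centring or the replicate block. The Org2 minus Org1 difference of each gene was correlated between days over 18641 genes. Pearson r was 0.14 for D21 and D25, 0.076 for D21 and D29, and 0.27 for D25 and D29. On these values the numbers were not taken to pair samples. With the replicate block, D29 against D21 called 6056 genes in place of 5081, and D25 against D21 called 2091 in place of 1486. Leaving out single libraries gave 2358 to 5417 genes for D29 against D21, 241 to 2231 for D25 against D21 and 0 to 2014 for D29 against D25, and 4 to 7, 1 to 2 and 0 to 7 members called lower. Some uncalled differences changed sign without a library: DAB2 from D21 to D29 (range -0.22 to 0.0045, also 0.0031), AMN (-0.0021 to 0.22) and HAO2 (-0.13 to 0.46) from D21 to D25. TNF over both times called 4061 genes, against 2184 with DESeq2. Without the added 1, 1266 genes at 24 h and 1140 at 48 h differed by at least 1, against 424 and 384. The cause of these shifts was not tested. In single cells all 8 members remained highest in proximal tubule-like cells among the named classes of VC, with all 8 ratios below 1, under each clustering, filter, thinning and the added removal of the highest Scrublet scores, chosen after seeing the data; the planned removal of Scrublet calls was not run, as there were none. Without alignment, however, the proximal tubule-like class held only 3.49% of TNF cells, and 66.2% of TNF cells had no name. FAM151A rests on 17 to 48 reads in the low bulk groups and 10 UMIs in TNF tubule-like cells.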

Other observations

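Some clusters that met no naming rule held members at high levels. Cluster 13, with 208 VC and 410 TNF cells and C1orf56, CTNNB1 and HNRNPH1 among its leading genes, held HNF4A at 51.2 CPM of UMIs in VC, above the 25.9 of proximal tubule-like cells, and at 3.85 in TNF. In VC the same cluster held LRP2 at 47.2, AMN at 49.6 and CUBN at 17.3, but HAO2 at 2.36. Cluster 11, with MSX1, DKK1, FABP7 and WNT1 among its leading genes, held DAB2 at 89.9 and LRP2 at 30.5 CPM in VC, with HNF4A at 0.185 and HAO2 at 0. Cluster 5, in which 9 podocyte markers passed but none led, held LRP2 at 27.6 in VC and 46.4 in TNF.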
